A study of Mus musculus with 16 samples.

Results

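Chromatin accessibility was examined at the promoters of the nuclear genes that encode the machinery of oxidative phosphorylation, in pancreatic islets of 8 inbred mouse strains. The genes were chosen by symbol, from the protein-coding GENCODE genes of chromosomes 1 to 19: the Ndufa, Ndufb, Ndufc, Ndufs and Ndufv genes (Ndufaf assembly factors included), Sdha to Sdhd, the Uqcr genes, Cox4 to Cox8 and the Atp5 genes. They came to 91 gene records with 90 symbols, out of 20807 protein-coding genes, since Atp5o had 2 records. Openness was measured by ATAC-seq: a transposase inserts sequencing adapters where DNA is not packed, and places with many insertions appear as peaks. The strains were labelled 129S1_SvImJ (129), A_J (AJ), C57BL/6J (B6), NOD_ShiLtJ (NOD), NZO_HlLtJ (NZO), CAST_EiJ (CAST), PWK_PhJ (PWK) and WSB_EiJ (WSB), with the first 5 taken as classical and the last 3 as wild-derived after the text of the study. Each strain gave 1 female and 1 male sample, which are its only replicates. No treatment was labelled, every sample was made from a selection of islets, and ages were not given in the sources used here. With 16 samples in all, p-values measure the spread between sexes within a strain, sex itself being a term of the model. Overlapping peaks of the 16 sample lists were merged into regions, and a gene was read through its main region, the one with the highest signal among those within 1 kb of any of its transcription start sites (TSS). The measure was the scaled signal, the signal at the summit of a sample's peak divided by that sample's median over the 42416 regions found in every sample, so that a value of 1 is the typical shared region.

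Oxidative phosphorylation is the last stage of respiration in mitochondria. Complexes I to IV of the inner membrane pass electrons from NADH and succinate to oxygen and, except for complex II, pump protons, and ATP synthase uses the returning protons to make ATP. In beta cells of the islet the rise of ATP that follows glucose closes potassium channels and starts insulin release. The subunits are split between the mitochondrial genome and the nucleus, and only nuclear genes are described here. Factors known to act at such promoters in other tissues include NRF1, the ETS factor GABP, YY1 and the estrogen-related receptors.

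Promoter windows from RefSeq (GRCm38.p6, from 250 bases before to 50 after a start) matched 73 of the 90 symbols. Each gene was searched on both strands for the letters CGCATGCG (NRF1), CCGGAAG (ETS), AAGATGGC (YY1), GGGCGG (SP1), TGACGTCA (CRE) and TCAAGGTCA (estrogen-related receptor). The NRF1 letters and the CRE letters read the same on both strands, and an ETS match can share its last 3 bases with the first of a YY1 match. A gene with several windows counted if any held the letters. The NRF1 letters were in 11 of 73 genes (15.1%), against 2.81% of 16457 protein-coding genes. The YY1 letters were also in 11 of 73 (15.1%), against 3.58%. The ETS letters were in 18 of 73 (24.7%), against 13.3%. At least 1 of these 3 was found in 33 of 73 genes (45.2%), against 18.2% of all. SP1 letters were about as frequent as in all genes, with 34 of 73 (46.6%) against 50.3%. The CRE letters were in 4 genes (5.48%, against 2.63%) and those of the estrogen-related receptors in Atp5g3 and Sdhd alone (2.74%, against 0.383%). A match to letters is a description of the sequence and not a bound site. Below are the windows of the promoters with the highest signal in complex IV (Cox7c, a small subunit) and in ATP synthase (Atp5j, coupling factor 6), of the lowest accessory subunit of complex I among genes with a peak in all samples (Ndufb8), and of 3 promoters that differed between strains (Atp5e, Cox8a and Cox5a). Each is written 5′ to 3′ along the gene, and capitals mark the matches on either strand.
Cox7c, chr13:86046746-86047045, minus strand: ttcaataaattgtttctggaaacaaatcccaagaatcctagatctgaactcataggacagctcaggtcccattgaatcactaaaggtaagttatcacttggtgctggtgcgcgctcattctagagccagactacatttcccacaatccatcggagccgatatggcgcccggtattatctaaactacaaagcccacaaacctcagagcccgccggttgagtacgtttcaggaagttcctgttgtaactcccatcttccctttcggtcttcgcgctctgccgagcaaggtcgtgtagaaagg
Atp5j, chr16:84834927-84835226, minus strand: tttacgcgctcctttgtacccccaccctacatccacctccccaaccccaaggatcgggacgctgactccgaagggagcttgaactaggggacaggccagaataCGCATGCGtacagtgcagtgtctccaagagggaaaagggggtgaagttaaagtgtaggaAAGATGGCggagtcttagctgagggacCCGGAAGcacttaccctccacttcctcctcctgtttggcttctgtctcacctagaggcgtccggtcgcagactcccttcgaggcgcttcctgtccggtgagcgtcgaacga
Ndufb8, chr19:44555393-44555692, minus strand: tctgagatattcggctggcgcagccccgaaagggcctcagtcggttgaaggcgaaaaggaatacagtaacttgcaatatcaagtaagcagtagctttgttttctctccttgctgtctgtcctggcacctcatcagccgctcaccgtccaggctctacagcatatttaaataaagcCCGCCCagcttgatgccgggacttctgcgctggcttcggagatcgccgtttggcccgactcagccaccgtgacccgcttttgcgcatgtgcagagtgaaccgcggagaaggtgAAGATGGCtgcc
Atp5e, chr2:174464052-174464351, minus strand: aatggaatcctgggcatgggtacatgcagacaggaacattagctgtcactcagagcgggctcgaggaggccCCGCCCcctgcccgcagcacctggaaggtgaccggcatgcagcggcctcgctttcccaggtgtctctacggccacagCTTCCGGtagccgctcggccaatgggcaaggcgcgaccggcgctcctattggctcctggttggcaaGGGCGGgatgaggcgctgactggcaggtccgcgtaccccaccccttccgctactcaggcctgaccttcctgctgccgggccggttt
Cox8a, chr19:7217567-7217866, minus strand: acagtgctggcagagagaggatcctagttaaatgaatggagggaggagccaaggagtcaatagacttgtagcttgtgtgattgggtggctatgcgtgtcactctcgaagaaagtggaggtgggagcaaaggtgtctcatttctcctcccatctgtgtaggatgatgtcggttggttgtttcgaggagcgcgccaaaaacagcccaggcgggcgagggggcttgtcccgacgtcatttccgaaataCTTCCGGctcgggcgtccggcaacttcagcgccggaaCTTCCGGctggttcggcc
Cox5a, chr9:57520982-57521281, plus strand: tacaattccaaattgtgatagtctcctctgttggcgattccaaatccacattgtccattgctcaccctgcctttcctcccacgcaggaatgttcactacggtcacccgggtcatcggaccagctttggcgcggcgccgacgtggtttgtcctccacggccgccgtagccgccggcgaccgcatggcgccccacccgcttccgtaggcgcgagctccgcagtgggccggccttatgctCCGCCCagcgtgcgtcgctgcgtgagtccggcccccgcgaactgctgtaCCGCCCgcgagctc
Atp5j held matches for NRF1, YY1 and ETS in 1 window, whereas the window of Cox7c, with a still higher signal, held none of the 6. The window of Ndufb8 had a YY1 match just after the start and an SP1 match before it. Cox8a had 2 ETS matches, Atp5e had 1 ETS and 2 SP1 matches, and Cox5a had 2 SP1 matches. Among the 69 genes with both a window and a peak in all samples, the 11 with NRF1 letters had a median scaled signal of 2.91 and the other 58 of 1.78. With YY1 letters it was 1.46 (11 genes) against 1.98, and with ETS letters 1.76 (18 genes) against 1.86. The median ratio of observed to expected CpG in the windows was 0.833 for these genes and 0.628 for all protein-coding genes, and the GC content was 59.0% and 57.7%.

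Oxidative phosphorylation promoters were open in nearly every islet sample. Of the 91 records, 85 had a region and 81 (89.0%) had a main region with a peak in all 16 samples, against 54.3% of the 20807 protein-coding genes. No pair of genes shared a main region. The samples had peaks at 82 to 85 of the 85 main regions, 82 in the AJ male and 85 in the CAST female. Roles were assigned by symbol alone, so that Ndufa4 and Ndufa4l2 were counted as accessory subunits of complex I. All 7 complex I core genes, all 8 complex I assembly factors, all 4 genes of complex II and all 8 of complex III were among the 81. The exceptions lay in complex IV, with 10 of 17 genes, in the accessory subunits of complex I, with 27 of 29, and in the second record of Atp5o, which had no region while the first had a peak in every sample. Under a stricter significance for peaks, 70 of the main regions still had a peak in all samples. A listed absence means that no peak passed the threshold of the authors and not that the promoter was closed.

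**Figure D1:**
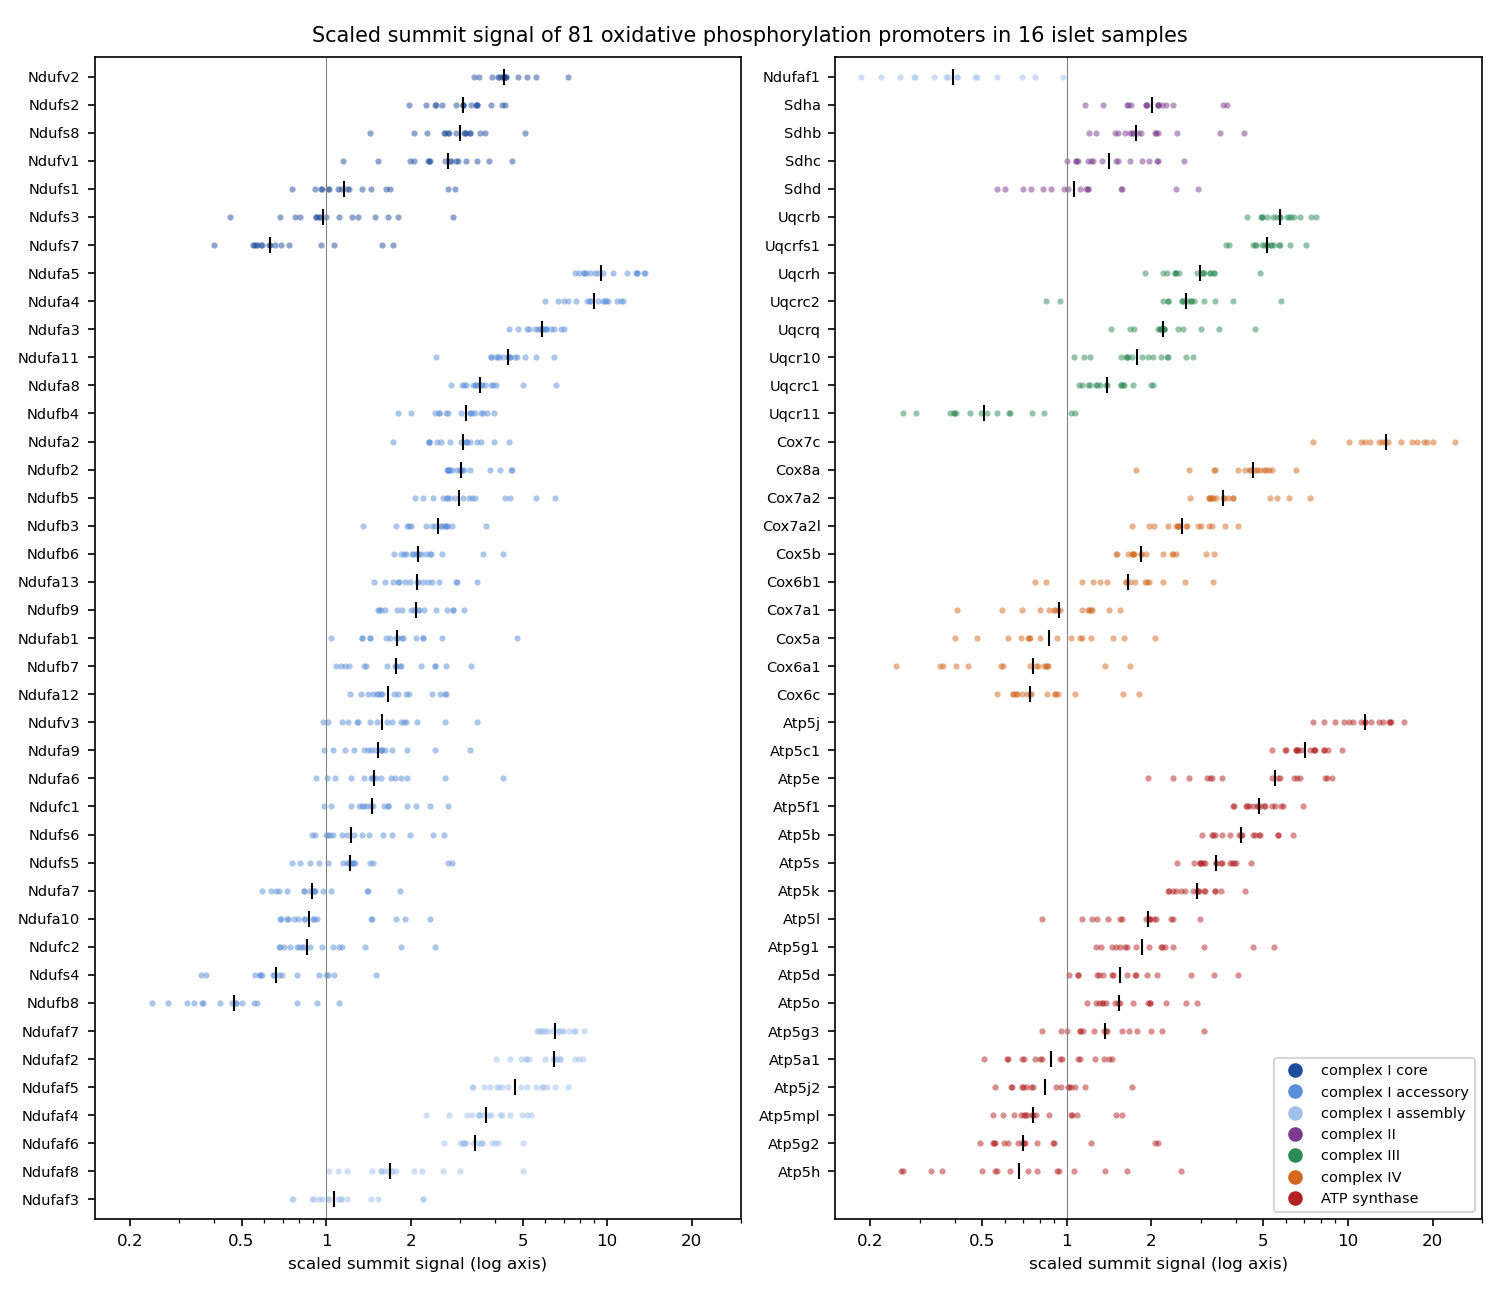
Scaled summit signal (log axis) of the 81 oxidative phosphorylation promoters with a peak in all 16 samples. Each point is a sample, the black tick is the median of a gene, colours give the role and the grey line marks the typical shared region at 1. Medians run from 0.392 at Ndufaf1 to 13.7 at Cox7c.

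The genes without a full set of peaks were mostly tissue-restricted isoforms. Complex IV has subunits with a widely expressed form and a form known from muscle, lung, testis or other tissues. Cox4i2, Cox6a2, Cox7b2, Cox8b and Cox8c, all of the second kind, had no region in any sample. Their widely expressed partners Cox6a1 (median scaled signal 0.759, range 0.246 to 1.67) and Cox8a (4.58, range 1.76 to 6.51) had peaks in all 16, and so did Cox7b (1.00, range 0.484 to 1.57), which is on the X chromosome and so not counted among the 91. Cox6b2, known from testis, had a weak peak in 15 samples, with a highest value of 0.534 in the 129 female and none in the B6 male. Cox6b1 had a median of 1.65. Ndufa4l2, a hypoxia-linked relative of Ndufa4, had a peak in the CAST female alone, at 0.152 and with a region of 18 bases, while Ndufa4 itself was among the highest promoters, with a median of 9.0 and values from 6.00 to 11.4. The heart and skeletal muscle form Cox7a1 was different, since it had a peak in all 16 samples. Its median was 0.935, against 3.60 for the widely expressed Cox7a2, and the lowest Cox7a2 sample (2.75) exceeded the highest Cox7a1 sample (1.55). A pair of widely expressed genes also missed 1 sample, the same for both. Cox4i1 and Ndufb10 had no peak in the AJ male, and in the 15 others their values were 0.508 to 1.78 and 0.246 to 1.53. The AJ male had the shortest list, with 80392 peaks, and the AJ female held the lowest of these other values for both genes.

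Among the 81 genes with a peak in all samples, signal differed more between genes than between samples of 1 gene. Medians ran over a range of 0.392 to 13.7, whereas the highest sample of a gene exceeded its lowest by a median of 2.94-fold, from 1.46-fold at Ndufaf7 to 9.94-fold at Atp5h. Within these 81, and among complex I core subunits, Ndufv2 was highest (4.29) and Ndufs7 lowest (0.629). Among accessory subunits of complex I, Ndufa5 was highest at 9.48 (range 7.69 to 13.6) and Ndufb8 lowest at 0.469 (range 0.241 to 1.11). The assembly factors of complex I had the highest median of any role, 3.54 over 8 genes, and held both Ndufaf7, a methyltransferase gene, at 6.52 and Ndufaf1 at 0.392. In complex II, Sdha, the flavoprotein that oxidises succinate, had 2.02 and the membrane anchor Sdhd 1.06. In complex III the highest was Uqcrb (5.75) and the lowest Uqcr11 (0.506). Cox7c (13.7, range 7.52 to 24.1) and Cox6c (0.742) marked the ends of complex IV among the 81, with Cox4i1 (0.730) and Cox6b2 (0.324), which missed 1 sample each, below Cox6c. In ATP synthase these were Atp5j (11.5, range 7.52 to 15.8) and Atp5h (0.675). The ranges of Ndufv2 and Ndufs7, of Ndufa5 and Ndufb8, of Uqcrb and Uqcr11, of Ndufaf7 and Ndufaf1, of Cox7c and Cox6c and of Atp5j and Atp5h did not overlap, whereas those of Sdha (1.16 to 3.72) and Sdhd (0.564 to 2.93) did. Against the 11292 protein-coding genes with a peak in all samples, Cox7c lay at percentile 98.9, Atp5j at percentile 97.9 and Ndufaf1 at percentile 0.682.

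Of the 3 genes for the identical mature c subunit of ATP synthase, Atp5g1 had a median of 1.86, Atp5g3 of 1.36 and Atp5g2 of 0.697. Their ranges overlapped, since they were 1.27 to 5.45, 0.817 to 3.07 and 0.491 to 2.10. The catalytic beta subunit Atp5b had 4.17, the gamma subunit Atp5c1 7.06 and the alpha subunit Atp5a1 0.880, the last at percentile 15.3 of promoters. The ranges of Atp5b (3.03 to 6.38) and Atp5a1 (0.508 to 1.45) did not overlap, although both encode parts of the same catalytic head.

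The summits sat close to the start sites. In 65 of 81 genes (80.2%) the median distance between the summit and the nearest start was at most 100 bases, against 59.7% of the 11292 protein-coding genes. The summit lay upstream of the start in 59 genes and downstream in 20, with a median of -27 bases, against -39 over all genes. The farthest were Ndufa13 (-806 bases) and Ndufa11 (-684 bases). Many of these promoters faced another gene. In 34 of the 81 main regions (42.0%) another protein-coding gene also started within 1 kb, against 22.9% over all genes, and in 30 (37.0%, against 16.4%) it pointed the other way with its start upstream. The median distance between such starts was 84 bases, from 3 bases between Ndufs1 and Eef1b2 to 336 between Uqcr10 and Zmat5. Signal in these regions cannot be split between the genes. Partners included Gabpa at Atp5j, which encodes the DNA-binding subunit of GABP and starts 93 bases away, as well as Timm8b at Sdhd and Mrpl36 at Ndufs6, for mitochondrial import and ribosomes, and Rps28 at Ndufa7. The 30 genes with such a partner had a median scaled signal of 2.35 and the other 51 had 1.77, and over all protein-coding promoters these were 2.55 and 2.00.

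Over the whole gene set, the median signal moved with that of all promoters. The median over the 81 promoters was 2.06 ± 0.498 (SD, n = 16), against 2.10 ± 0.317 over the 10023 main regions of all protein-coding genes and 1.88 ± 0.607 over 68 cytosolic ribosomal protein promoters, a second set of housekeeping genes. It was lowest in the B6 male (1.43) and highest in the NZO male (3.13) and the 129 female (3.10). Those 2 samples were also the highest over all protein-coding promoters, at 2.75 and 2.76. The ratio of the oxidative phosphorylation median to that of all promoters ran from 0.852 in the AJ male to 1.14 in the NZO male. By strain, the means of the female and the male were 2.65 ± 0.637 in 129 (SD, n = 2), 2.52 ± 0.858 in NZO, 2.27 ± 0.242 in CAST, 2.06 ± 0.448 in PWK, 1.81 ± 0.0556 in WSB, 1.80 ± 0.0574 in NOD, 1.75 ± 0.442 in B6 and 1.59 ± 0.0366 in AJ. The female and the male of 129, NZO and PWK lay so far apart that neighbours in this order did not differ beyond their spread. All promoters had the same 3 strains at the top, with 2.51 in 129, 2.35 in NZO and 2.25 in CAST.

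**Figure D2:**
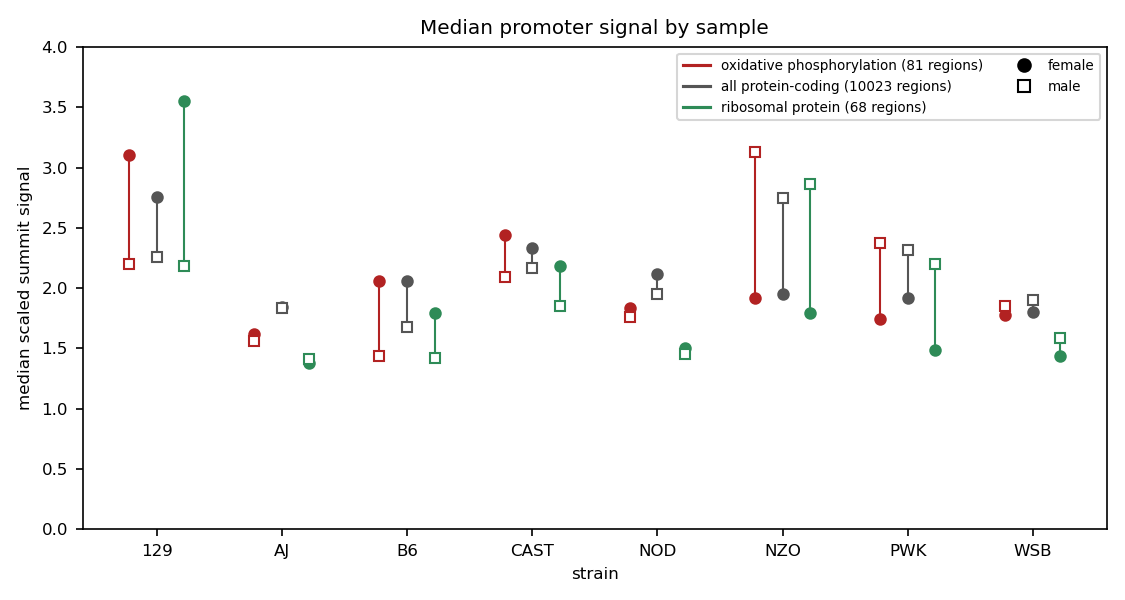
Median scaled summit signal of oxidative phosphorylation promoters, of all protein-coding promoters and of ribosomal protein promoters, by strain. Filled circles are females, open squares males, and lines join the 2 samples of a strain. The 129 female and the NZO male stand above the other sample of their strain in all 3 sets.

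The 129 female held the highest value for 36 of the 81 promoters, the NZO male for 22 and the PWK male for 12, which left 11 for the other 13 samples. The lowest value was most often in the AJ female (15 promoters), the B6 male (13), the AJ male (10) and the PWK female (10). On the log2 scale, the female exceeded the male of 129 by a median of 0.52 over these promoters and by 0.23 over all protein-coding promoters. The female minus male difference was -0.62 in NZO and -0.45 in PWK, against -0.38 and -0.24 over all promoters. It lay between -0.09 and 0.18 in the other 5 strains. Over all 42416 regions it lay between -0.06 and 0.02 in all 8 strains. Values near 0 are set there by centring each sample on its median over these same regions. Each promoter's profile over the 16 samples was also compared with the median profile of all protein-coding promoters, as a description across samples that share libraries and strains. Pearson's r had a median of 0.716 over the 81 promoters, 0.762 over the ribosomal ones and 0.539 over all, and exceeded 0.5 in 55 of 81 (67.9%), 52 of 68 (76.5%) and 52.7%.

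The deviations depended on how strong a promoter was. In the 129 female, the 27 promoters of lowest signal lay 1.01 above their mean over samples on the log2 scale (median) and the 27 highest lay 0.18 above. In the NZO male these were 0.77 and 0.07. The order was the opposite in the AJ male, with -0.50 for the lowest and 0.15 for the highest, and it was also the opposite in the AJ female, the B6 male and both NOD samples. Thus Cox7c, the highest promoter, had its lowest value in the 129 female (7.52) and its highest in the AJ male (24.1), whereas the weak Ndufaf1 was highest in the 129 female (0.966) and lowest in the AJ female (0.185). The slope of a sample's deviation on the mean log2 level was -0.35 in the 129 female and -0.27 in the NZO male over the 81 promoters, and -0.15 and -0.19 over all protein-coding promoters. Fits that removed such a dependence are given with the strain tests. The same 2 samples also held the highest sums over marker genes. The NZO male had the highest summed scaled signal over the promoters of acinar (3.00, others from 0.395), duct (4.20, others from 1.46), endothelial (0.764, others from 0) and leukocyte markers (1.11, others from 0.105). Over all samples these sums had medians of 1.21, 2.07, 0.216 and 0.233, with a missing peak counted as 0. The NZO male had the lowest sum over 14 islet endocrine markers (28.5, up to 41.5 in the 129 female). Of these lists 1 of 8 acinar, 2 of 5 duct, 0 of 5 endothelial and 0 of 6 leukocyte markers had a peak in all samples, and Cel, Ptf1a and Pnlip (acinar), Tie1 and Emcn (endothelial) and Cd3e and Cd79a (lymphocytes) had no region at all. High sums in the NZO male were not limited to these markers. It was also highest over assembly factors of complexes II to V (80.7), regulators of respiration genes (56.1) and the citric acid cycle (45.8). Over electron transfer genes the 129 female was highest, and over other assembly factors of complex I the AJ male. The part of other cells in the levels was not tested. Of the islet markers 12 of 14 had a peak in all samples, among them Pax6 (5.49 to 10.4) and Nkx6-1 (2.28 to 4.31), while Sst had a peak in 1 sample and Ppy had no region. The adipocyte and muscle list summed to 3.26 to 7.88, the highest in the 129 female, and 2 of its 7 genes, Ckm and Actn2, had a peak in all samples, while Adipoq and Myh6 had no region.

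**Figure D3:**
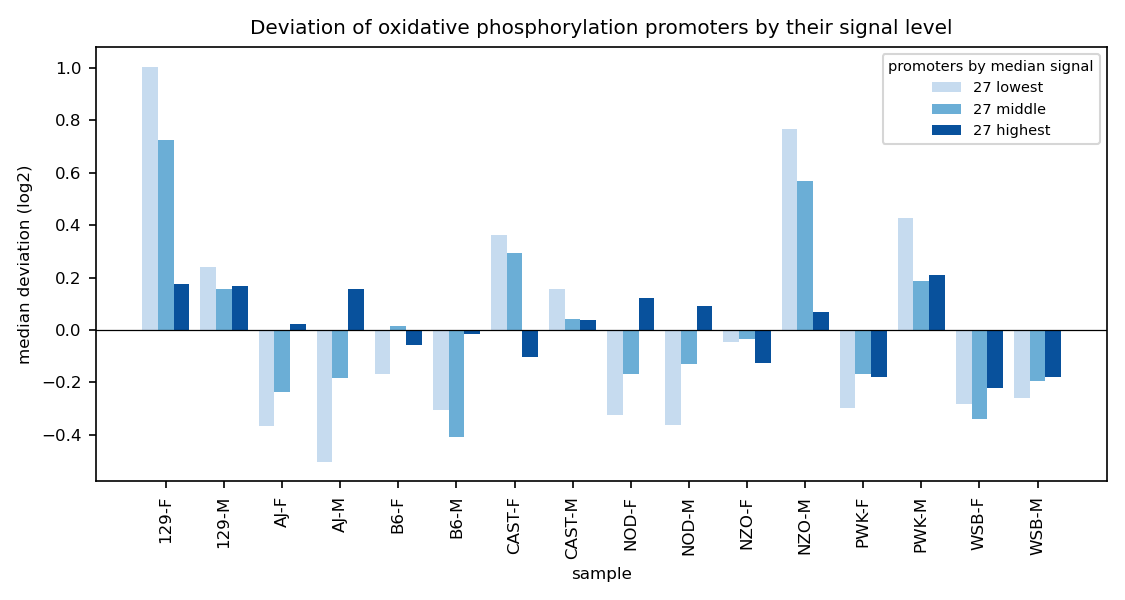
Median deviation (log2 scale) of oxidative phosphorylation promoters from their own mean over the 16 samples, for the 27 promoters of lowest, middle and highest median signal. In the 129 female and the NZO male the bars fall from the weak to the strong promoters, and in the AJ and NOD samples they climb.

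To ask which promoters differed between strains, all 42416 shared regions were fitted with limma in a model of strain and sex, on log2(signal + 1) centred on each sample's median, and p-values were adjusted over all of them. A strain effect was called at 11 of the 81 oxidative phosphorylation promoters (13.6%, adjusted p under 0.05), and 30 had an unadjusted p under 0.05. Of all shared regions 34.9% were called, of all protein-coding promoters 21.6%, and of the 68 ribosomal protein promoters 10 (14.7%). The share called in this set was thus below that of promoters in general and close to that of the other housekeeping set. An unadjusted p under 0.05 was found at 3819 of the 10023 promoters and at 23 of the 68 ribosomal ones. At that cutoff the 3 shares lay close together. By role, 4 of 17 ATP synthase genes, 3 of 10 of complex IV, 1 of 8 of complex III, 1 of 4 of complex II, 1 of 7 core and 1 of 27 accessory subunits of complex I and 0 of 8 assembly factors were called. The 11 were Atp5e, Atp5h, Uqcrc2, Cox5a, Cox8a, Sdhc, Ndufb7, Cox6b1, Atp5a1, Ndufs8 and Atp5d. The median SD between strain means was 0.35 (log2) over the 81 promoters and 0.32 over all promoters, and the median SD within strains was 0.32 and 0.26. The count moved with single samples. It was 40 without the NZO female, 22 without the NZO male, 18 without the 129 male and 17 without the PWK female. It was 7 without the 129 female, the AJ female, the B6 male or the CAST female, 6 without the NOD male or the WSB male, and 5 without the CAST male or the WSB female. Calls over all regions moved as well, with 59.3% (25159 regions) without the NZO female and 18.3% without the CAST female. In 36 of the 37 fits run, the share of these promoters was below that of all regions, and the exception was the fit with no centring. With merging of promoter peaks alone the shares were 27.2% and 31.3%. The alternative fits were not compared with promoters in general. Normalisation by cyclic loess, which removes differences that depend on level and was added after the values were seen, gave 11 calls. They were not the same 11, since Atp5d was lost. Of the calls of single strains given below, that fit lost Sdhc in 129, Cox6b1 in AJ, Atp5j in CAST, and Atp5e and Atp5h in NOD.

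**Figure D4:**
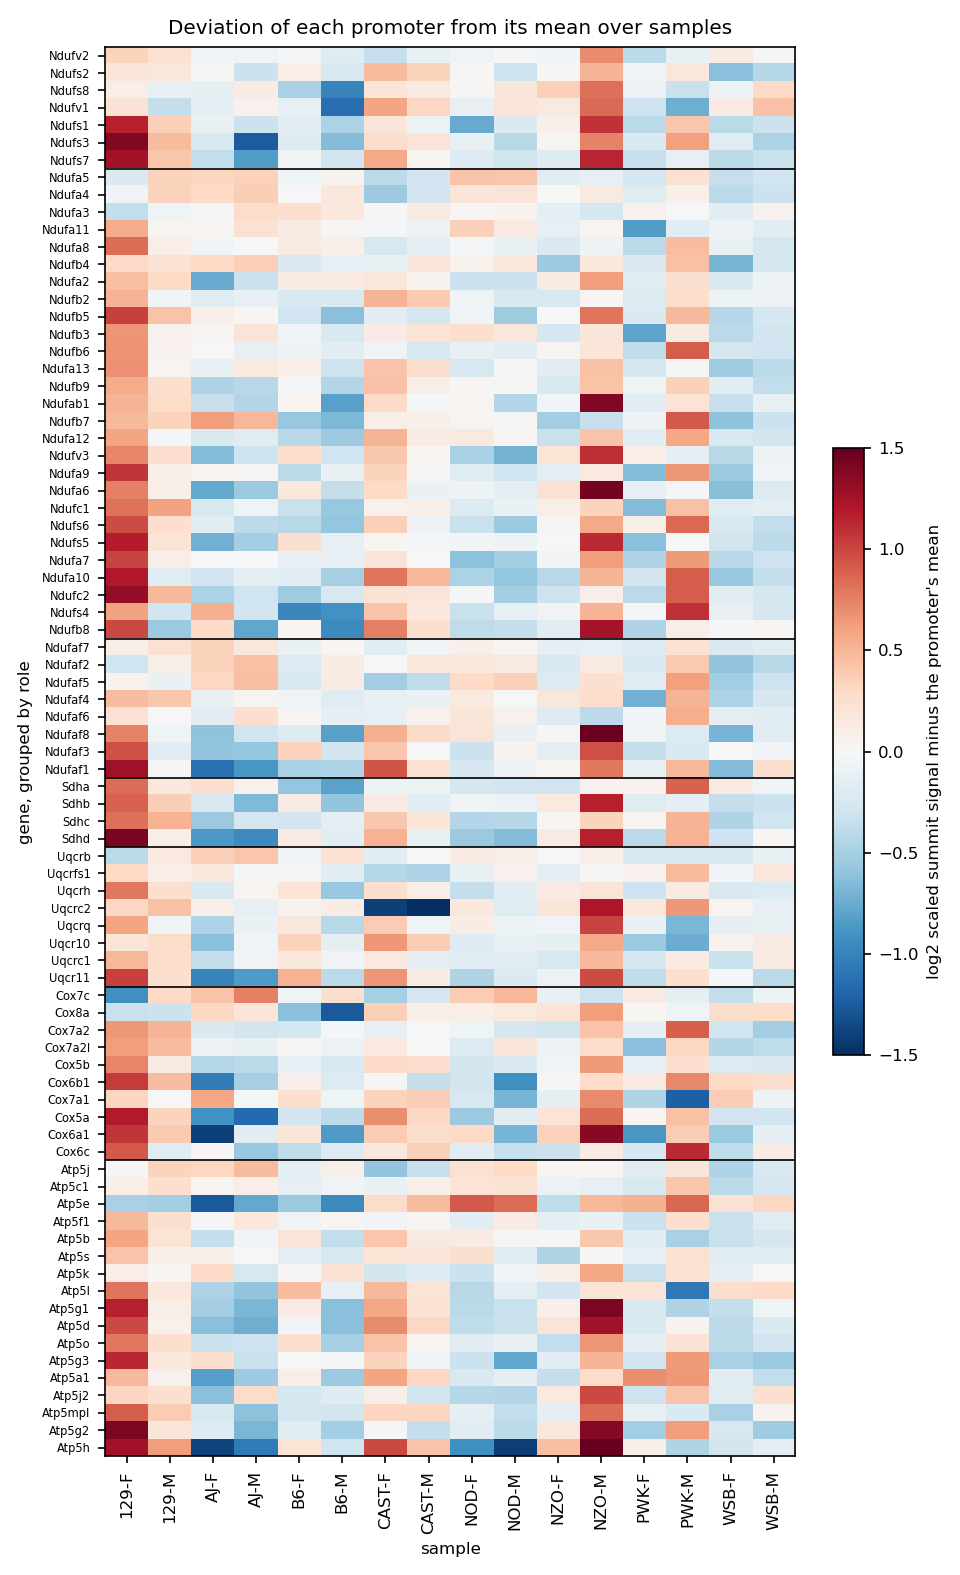
Deviation of each of the 81 promoters (rows, grouped by role) from its mean over the 16 samples (columns), in log2 scaled summit signal. Red is above and blue below the mean. The 129 female and the NZO male columns are red for most weak promoters, and the dark blue pair at Uqcrc2 is CAST.

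Uqcrc2, which encodes a core protein of complex III, gave the largest difference of any strain. Its region, chr7:120634330-120636264 (mm10), had scaled signals of 0.943 in the CAST female and 0.846 in the CAST male, and of 2.20 to 5.76 (median 2.73) in the other 14 samples. The CAST samples lay below all others with a gap. The log2 difference of CAST from the other 7 strains was -1.67 (SE 0.23, n = 2 against 14, limma, adjusted p = 0.000265), which is 3.19-fold, and 13.4% of all regions were called lower in CAST, against 6.80% higher. Reads of all strains had been aligned to the genome of B6. The paper also aligned them to individualized genomes, and judged the differences no larger than slight changes of alignment settings would bring. The part of sequence differences in the lower CAST signal here was not tested. It was called in each of the 16 fits that left out 1 sample. With the mean signal, a second deposited measure of a peak, the difference was -0.42 (adjusted p = 0.156). The strain effect had an adjusted p of 0.00451, and of 0.0636 without the CAST male. Atp5j was also called lower in CAST, by less and with overlap. Its values there were 7.52 and 8.98, the other 14 lay at 8.25 to 15.8 with the WSB female between the CAST samples, and the difference was -0.53 (SE 0.16, limma, adjusted p = 0.0364), and -0.02 (adjusted p = 0.951) with the mean signal. This call held in 8 of the 16 fits without 1 sample.

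Atp5e, which encodes the epsilon subunit of the central stalk of ATP synthase, had the smallest adjusted p of the strain test (limma, 0.00181), and lay in the region chr2:174463492-174464674. The scaled signal of the female and the male was 8.77 and 8.29 in NOD, 6.73 and 8.41 in PWK, 5.62 and 6.41 in CAST, 5.38 and 5.74 in WSB, 3.56 and 6.56 in NZO, 3.29 and 3.22 in 129, 3.14 and 2.39 in B6 and 1.94 and 2.71 in AJ. All samples of 129, AJ and B6 thus lay below every sample of the other 5 strains. Against the other 7 strains, AJ was lower by 1.16 on the log2 scale (SE 0.22, adjusted p = 0.0124) and B6 by 0.86 (adjusted p = 0.0491), while NOD was higher by 1.01 (adjusted p = 0.0256) and PWK by 0.78 (adjusted p = 0.0326), all in the same limma fit. Of all regions 3.01% were called lower in AJ, 1.59% lower in B6, 1.64% higher in NOD and 5.16% higher in PWK. The strain effect was called in all 16 fits without 1 sample. Of the single strains, AJ was called in 14 of them (not without either AJ sample, adjusted p = 0.16 and 0.138), NOD in 11, PWK in 9 and B6 in 3. With the mean signal the strain effect was not called (adjusted p = 0.234), and the AJ difference was -0.19.

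Cox8a, the widely expressed form of a small subunit of complex IV, was lower in B6, the strain of the reference genome. Its region, chr19:7216877-7218301, had 2.71 in the B6 female and 1.76 in the B6 male, against 3.34 to 6.51 (median 4.72) in the other 14, with no overlap. The difference was -1.07 (SE 0.19, limma, adjusted p = 0.0116), a 2.10-fold change, and -0.89 (adjusted p = 0.0189) with the mean signal. It was lost without the B6 male (-0.76, adjusted p = 0.35). Ndufs8, an iron-sulfur subunit of the complex I core, was also lower in B6. Its values of 2.05 and 1.43 lay below the 2.28 to 5.09 of the others, by 0.84 on the log2 scale (SE 0.20, limma, adjusted p = 0.0427), but the call held in 5 of the 16 fits without 1 sample.

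Cox5a, which encodes a nuclear subunit of complex IV, was lowest in AJ. Its region, chr9:57520748-57522290, had 0.477 in the AJ female and 0.400 in the AJ male, and the other 14 had 0.616 to 2.05 (median 0.978), with no overlap. The difference was -1.16 (SE 0.24, limma, adjusted p = 0.0192). It was lost without the AJ female (adjusted p = 0.13) and without the AJ male (0.262), when 1 sample was left in AJ. With the mean signal it was -0.56 (adjusted p = 0.118). Cox6b1 was called lower in AJ as well, with 0.769 and 1.13 against 0.841 to 3.31, by 0.88 on the log2 scale (limma, adjusted p = 0.0478), and in 5 of the 16 fits without 1 sample.

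Atp5h, which encodes subunit d of the peripheral stalk of ATP synthase and whose region is chr11:115419459-115420591, was called in 3 strains. It had 0.262 and 0.327 in AJ, 0.360 and 0.256 in NOD and 0.938 and 2.55 in the NZO female and male, and the rest lay from 0.50 (PWK male) to 1.64 (129 female). Against the other 7 strains, the log2 difference was -1.35 in AJ (SE 0.31, adjusted p = 0.0274), -1.31 in NOD (adjusted p = 0.0422) and 1.32 in NZO (adjusted p = 0.0333), all in the limma fit. Of all regions 1.32% were called lower in NOD and 2.22% higher in NZO. Of the 16 fits without 1 sample, the AJ call held in 11, the NOD call in 5 and the NZO call in 10. Without the NZO male the NZO difference was 0.45 (adjusted p = 0.602). With the mean signal the NZO call held (0.85, limma, adjusted p = 0.0402). The AJ and NOD calls were then lost (-0.81 and -0.46, limma, adjusted p = 0.0517 and 0.361). The strain effect of Atp5h, with an adjusted p of 0.00424, was called in all 36 alternative fits. Its region also holds the start of Kctd2, and its signal was low, so that its folds are understated by the 1 added before the logarithm.

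Sdhc, a membrane anchor of complex II, was the sole promoter of the set called in 129, where 0.952% of all regions were called higher. It had 2.62 and 2.12 there and 1.00 to 2.09 in the other samples, a difference of 0.77 (SE 0.19, limma, adjusted p = 0.0437). The call held in 5 of the 16 fits without 1 sample, and without the 129 female the difference was 0.53 (adjusted p = 0.572). The difference was 0.20 (adjusted p = 0.642) with the mean signal, and the call was lost under centring on promoters. Called or not, 72 of the 81 promoters lay above 0 in 129 against the other 7 strains, with a median of 0.44 on the log2 scale, while the medians were 0.28 over all promoters and 0.09 over all shared regions. So did 8168 of the 10023 promoters of all genes and 67 of the 68 ribosomal ones. The 27 promoters of lowest signal lay 1.01 above their mean in the 129 female and 0.24 in the 129 male, and the 27 highest 0.18 and 0.17. In WSB 69 of 81 lay below 0 (median -0.26, against -0.21 over all promoters), and none was called, where 5.65% of all regions were called in either direction and 10 of the 81 had an unadjusted p under 0.05.

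PWK set apart 4 of the 81 promoters, with 5.16% of all regions called higher and 5.68% lower. With the mean signal none of the 4 was called in PWK. The differences were then 0.28 at Atp5a1 and 0.25 at Atp5e (limma, adjusted p = 0.42 and 0.441). They were -0.42 at Cox7a1 and -0.53 at Uqcr10 (limma, adjusted p = 0.267 and 0.162). With the summit signal, the higher ones were Atp5e and Atp5a1, which encodes the alpha subunit of the catalytic head. Atp5a1 had 1.45 and 1.41 in PWK and 0.508 to 1.35 in the others, by 0.75 on the log2 scale (SE 0.22, limma, adjusted p = 0.0441), a call held in 5 of the 16 fits without 1 sample. The lower ones were Cox7a1 and Uqcr10. Cox7a1 had 0.694 and 0.406 in PWK and 0.585 to 1.55 in the others, with a difference of -0.92 (SE 0.24, limma, adjusted p = 0.0278), and was not called without the PWK female (adjusted p = 0.0691), the PWK male (0.311), the CAST male (0.0504) or the WSB female (0.0509). Uqcr10, named after its value was seen, had 1.21 and 1.06 against 1.15 to 2.81 (difference -0.74, limma, adjusted p = 0.0458). It shares its region with Zmat5 and was called in 4 of the 16 fits without 1 sample. Atp5d, the delta subunit of the central stalk, and Ndufb7, an accessory subunit of complex I, had a strain effect (adjusted p = 0.0489 and 0.023, limma) and were called in no single strain. Ndufb7 had 2.43 and 2.17 in 129 and 2.68 and 2.44 in AJ, against 1.17 and 1.08 in B6, 1.21 and 1.36 in NZO and 1.13 and 1.39 in WSB. These groups of strains, which did not overlap, were picked after the values were seen, and CAST, NOD and PWK lay at 1.65 to 3.28. The strain effect of Ndufb7 was not called with the mean signal (limma, adjusted p = 0.157). It held in 10 of the 16 fits without 1 sample. Atp5d was named after its value was seen, and its call held in 4 of the 16.

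**Figure D5:**
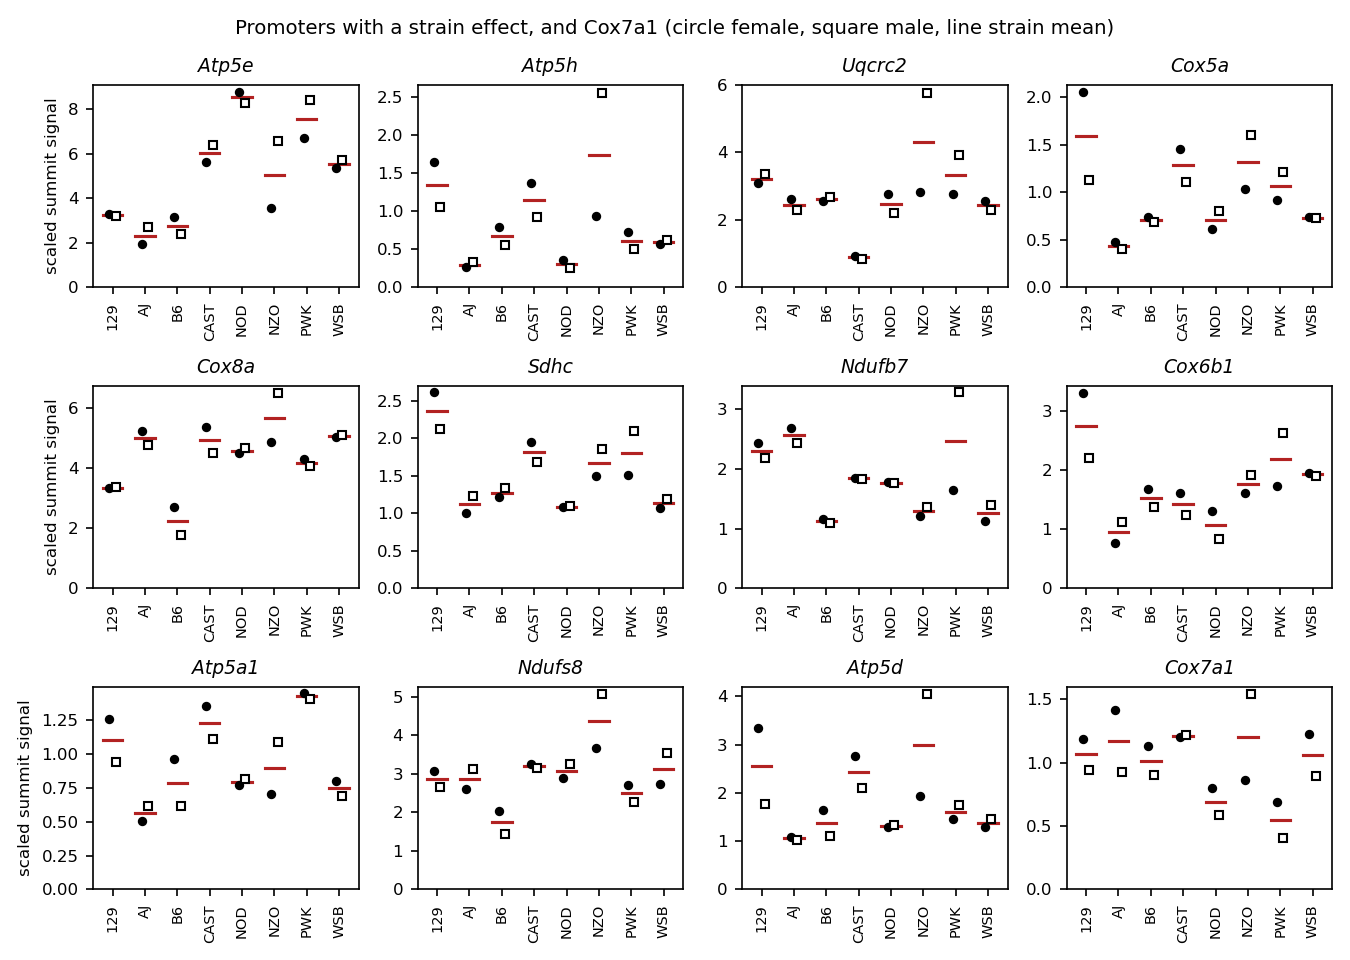
Scaled summit signal of the 11 promoters with a strain effect and of Cox7a1, by strain. Circles are females, squares males and red lines strain means, and each panel has its own axis from 0. CAST lies lowest at Uqcrc2, B6 at Cox8a and AJ at Cox5a, and at Atp5e 129, AJ and B6 lie below the other 5 strains.

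Calls for strain class and for sex were rare over all shared regions (14 and 4 of 42416), and none fell on these promoters. In limma on the 8 strain means, wild-derived against classical, 0 of 81 were called and 1 had an unadjusted p under 0.05, with 0.033% of all regions called. The median difference was -0.06 on the log2 scale, against -0.05 over all promoters. Between females and males 0 of 81 were called, 2 had an unadjusted p under 0.05, and 0.00943% of all regions were called. The X-linked genes of the same families, Ndufa1, Ndufb11 and Cox7b, had peaks in all 16 samples and female minus male differences of -0.17 (SE 0.13), -0.02 (SE 0.11) and -0.06 (SE 0.15), with an adjusted p of 0.999 for each (limma).

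The strain lists of the authors, which score the reproducibility of peak ranks across the sexes, gave a second reading of the same peaks. At an irreproducible discovery rate (IDR) of 0.05, 70 of the 81 promoters had a repeated peak in all 8 strains. For that count no share over all promoters was taken. The share per strain ran from 87.7% in AJ to 100% in CAST, close to the 89.5% and 99.3% of all promoters. Of the promoters that did not pass in all strains, Ndufaf1 passed in CAST alone, Ndufb8 in CAST and WSB, and Cox6a1 in 4 strains, while Uqcr11, of lower signal than Cox6a1, passed in 6 and Cox6c in all 8. Atp5h did not pass in AJ and NOD, the strains in which it was called lower, and Cox5a did not pass in AJ. In contrast, Atp5e and Cox6b1 were called lower in AJ and passed there. Atp5g2, Atp5j2, Ndufb8, Ndufaf1, Ndufs3, Ndufs7, Uqcr11 and Cox6a1 did not pass in AJ and were not called there.

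Other genes of respiration were open as well. All 66 of the genes listed had a region, and 61 had a peak in all samples, of which 9 had a strain effect, where 34.9% of all regions and 21.6% of protein-coding promoters did. Among them were Coq7, which makes ubiquinone (1 of 6 electron transfer genes), Sdhaf2, Cox19 and Atpaf1 (3 of 24 assembly factors of complexes II to V), Tmem126b (1 of 6 other assembly factors of complex I), Ppargc1a and Esrrg (2 of 13 regulators), and Suclg2 of the citric acid cycle. Ppargc1a, the coactivator known for driving mitochondrial biogenesis, ranged from 2.78 to 13.0 in scaled signal (limma, adjusted p = 0.00829), and Suclg2 from 0.395 to 2.43 (adjusted p = 0.000663).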

How the data were processed

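ATAC-seq was made from islets of 8 mouse strains, about 50 islets being used per sample. The authors trimmed reads with cutadapt (2.0), aligned those of every strain to mm10 with Bowtie2 (2.3.4.1), removed duplicates with Picard (2.9.2) and mitochondrial reads, and used MOSAiCS for peaks (false discovery rate 0.05) (versions from the submitters' processing notes). A shift of reads for the transposase was not given in the sources used here. The deposited lists hold a summit signal in whole numbers, not scaled for depth, a mean signal, a −log10 p per peak and, in the strain lists made by the authors, a −log10 IDR. Read totals are not in the lists, per-sample read depth was not used here, and no counting interval is given; lists held 80392 to 173735 peaks and sample medians of the summit signal were 32 to 136.

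From these, overlapping peaks were merged into 373344 regions, of which 42416 had a peak in all 16 samples, and matched to GENCODE M21 starts. Tests used limma 3.58.1 in R 4.3.3 on log2(signal + 1), centred on the sample median, with strain and sex, Benjamini-Hochberg adjustment over the 42416 regions and a threshold of 0.05, after tests on simulated data. Each strain was set against the other 7. Class was tested on strain means. Alternatives changed the centring, pseudocount (10), filter, measure, regions, sex term and samples. Named genes were the 10 smallest adjusted p of the strain test, the largest non-overlapping calls of a strain, the highest and lowest gene of each role, isoform pairs and genes without a full set of peaks. The members and lists were chosen with earlier results of these data known. No batch is labelled, and whether both sexes of a strain came from separate single animals was not stated, so the spread may be technical in part.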

Additional observations from a re-analysis of the deposited data

Results flagged for a closer look

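Groups of 8 females, 8 males or 5 classical strains were formed for the medians of the set and its roles, and for named genes with a peak in all samples. In 19 of 102 such groups, 1 value lay farther from the rest than Dixon's 95% limit. Many of these genes were named for their values in the same samples, so the chance rate of 1 in 20 does not apply. Most of the 19 flags came from the same 3 samples, and groups share samples. Values are scaled summit signals, with those of the other samples of the group after them.

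The 129 female stood above the other females in the medians of complex I accessory subunits (3.09, others 1.48 to 2.22), complex II (3.22, others 1.28 to 1.93) and complex IV (3.32, others 1.45 to 2.03). It did so at Cox6b1 (3.31, others 0.769 to 1.96), Cox6c (1.59, others 0.642 to 0.933), Ndufs7 (1.72, others 0.547 to 1.07), Sdha (3.60, others 1.35 to 2.38) and Sdhd (2.93, others 0.600 to 1.57). The mean of 129 stood apart at Cox6c among the 5 classical strains (1.16, others 0.683 to 0.788).

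The NZO male stood above the other males in the medians of ATP synthase (3.40, others 1.27 to 2.10) and complex III (3.95, others 1.82 to 2.78). Single promoters were Atp5h (2.55, others 0.256 to 1.06), Ndufb8 (1.11, others 0.241 to 0.551), Ndufs7 (1.58, others 0.400 to 0.957), Ndufv2 (7.25, others 3.89 to 5.19) and Uqcr11 (1.04, others 0.291 to 0.625). The PWK male stood above the other males at Cox6c (1.81, others 0.564 to 1.07) and Sdha (3.72, others 1.16 to 2.25). The CAST female lay below the other females at Uqcrc2 (0.943, others 2.57 to 3.09).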

How the results depend on the processing

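The count of oxidative phosphorylation promoters with a strain effect was 11, where 34.9% of all regions were called. It was 61 without centring (62.3% of all regions), 17 with centring in bins of GC content (40.5%) and 17 with a pseudocount of 10 (40.9%). It was 5 with regions found in at least 12 samples (17.9%) and 22 with merging of promoter peaks alone (31.3%). Leaving out 1 sample or 1 strain gave 5 to 40. The count that set 1 strain apart (12) was 77 without centring, 6 with regions found in at least 12 samples, 5 with the mean signal, 24 with promoter peaks alone, 5 to 45 without 1 sample, the most without the NZO female, and 24 without the 129 female and the NZO male, a fit added after the values were seen. For that count no share over all regions was taken. The causes were not tested. The counts for class and sex were 0 in every fit run. The median signal (2.06) was 1.46 under the stricter peak threshold and 1.98 to 2.10 without 1 sample. Of 872 refits of single calls, 596 kept direction and call, 273 lost the call and 3 turned: without centring, the log2 difference of Atp5j in CAST was 0.25, that of Atp5a1 in PWK -0.0743 and that of Atp5e in PWK -0.0403. No paired analysis was possible because the labels give no replicate numbers shared between strains beyond sex, which is a term of the model. Lists that hold no read totals and 2 samples per strain limit what can be detected.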
